A study of Homo sapiens with 8 samples.

Results

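Integrins are the receptors by which epithelial cells hold on to the extracellular matrix. Each receptor is a pair of an alpha and a beta subunit, and the pair decides which ligand is bound. The described set holds the 10 alpha and beta integrin subunits usual in epithelial cells, out of 26 integrin subunit genes and 62649 genes counted. All 10 passed the filter on low counts, ITGB6 through its SW620 reads alone. They were taken by gene symbol: ITGA2, ITGA3, ITGA5, ITGA6, ITGAV, ITGB1, ITGB4, ITGB5, ITGB6 and ITGB8. ITGB1 is the common beta chain, which pairs with ITGA2 into a collagen receptor, with ITGA3 and ITGA6 into laminin receptors and with ITGA5 into the classical fibronectin receptor. ITGB4 pairs with ITGA6 alone, and that pair anchors epithelial cells to laminin-332 in hemidesmosomes, where it is linked to keratin filaments inside the cell. ITGAV pairs with ITGB1, ITGB5, ITGB6 and ITGB8, which bind ligands with an RGD motif such as vitronectin, fibronectin and latent TGF-beta. A subunit reaches the cell surface only in a pair, so the partners' mRNA levels are set side by side in the results.

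The 8 libraries were poly-A RNA of 2 human colorectal adenocarcinoma lines, SW620 and SW480, derived from a lymph node metastasis and from the primary tumour of 1 patient. They fell into 4 groups of 2 libraries: SW620 with caffeine, untreated SW620, SW480 with caffeine and untreated SW480. Per the labels, both lines carry an mCherry-tagged immunoproteasome subunit (SW620B8-mCherry and SW480-B8mCherry), in treated and untreated cultures alike, and whether each is 1 clone was not stated. Caffeine antagonises adenosine receptors and inhibits phosphodiesterases, and the title of the series names it with the immunoproteasome. Per the labels, SW620 cultures were given 30 to 500 µM caffeine over 72 h or 125 µM over 28 days. Which of these schedules the libraries come from, and what SW480 was given, was not stated.

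A library held 15760259 to 23269315 reads assigned to genes. Cell line split the libraries along the leading principal component of log2 CPM (counts scaled to library size), with 89.4% of the variance. Mitochondrial genes took 1.63% of the reads in replicate 2 of caffeine-treated SW480 and 4.38% to 6.16% elsewhere. Of 10 colorectal epithelial marker genes, the summed level was 10653 to 14308 CPM in the SW620 libraries and 4618 to 6892 CPM in the SW480 libraries. CDX1 had no count in any library, and CDH1 (E-cadherin) had 0.129 to 0.907 CPM in SW480, against 192 to 395 CPM in SW620. Of 7 leukocyte markers, LCP1 made up nearly all of a summed 633 to 767 CPM in SW620, while PTPRC, which marks leukocytes, had no count there. Of 8 fibroblast markers, LUM had 29 to 33.3 CPM in SW620 and no count in SW480, and DCN had 2 counts in all SW620 libraries together. In cultures sequenced in bulk, fewer cells with a transcript and less of it per cell cannot be told apart.

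On GRCh38 the members lie on 7 chromosomes, per GENCODE 29. ITGA6 spans 172427354 to 172506282 (plus strand), ITGAV 186590065 to 186680901 (plus) and ITGB6 160099666 to 160200313 (minus), all on chromosome 2. ITGA3 (50055968 to 50090481) and ITGB4 (75721328 to 75757818) lie on chromosome 17, both on the plus strand. Chromosome 5 holds ITGA2 (52989326 to 53094779, plus), chromosome 12 ITGA5 (54395261 to 54419460, minus), chromosome 10 ITGB1 (32900319 to 33005792, minus), chromosome 3 ITGB5 (124761948 to 124901418, minus) and chromosome 7 ITGB8 (20330702 to 20415754, plus). Exons of ITGB6 share 966 bases, 20.6% of their length, with AC092153.1 on the same strand, a gene with at most 6 counts in a library. Exon overlaps of the other members were with genes on the opposite strand and covered at most 2.66% of a member's exons. The strand setting of the counting was not stated, and those genes had at most 69 counts in a library.

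Upstream sequence is shown for 4 members whose levels set the lines or the treatments apart: ITGA6 and ITGB1, which were higher with caffeine in SW620, ITGB5, which runs the other way between the lines, and ITGB6, which was nearly silent in SW480. RefSeq promoter windows (GRCh38.p14) were at hand for 8 of the 10 members, 13 windows in all, and each stretch printed lies before a start site and outside exons of protein-coding genes. Capitals mark GGGCGG, the box of SP1-type factors, and TATAAA, the TATA box, on either strand.
ITGA6, chr2:172427086-172427335, plus strand: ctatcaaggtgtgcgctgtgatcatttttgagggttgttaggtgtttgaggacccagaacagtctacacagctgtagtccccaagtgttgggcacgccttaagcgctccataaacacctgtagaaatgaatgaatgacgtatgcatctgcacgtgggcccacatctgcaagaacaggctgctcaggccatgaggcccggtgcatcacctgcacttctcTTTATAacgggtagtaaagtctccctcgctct
ITGB1, chr10:32958233-32958480, minus strand: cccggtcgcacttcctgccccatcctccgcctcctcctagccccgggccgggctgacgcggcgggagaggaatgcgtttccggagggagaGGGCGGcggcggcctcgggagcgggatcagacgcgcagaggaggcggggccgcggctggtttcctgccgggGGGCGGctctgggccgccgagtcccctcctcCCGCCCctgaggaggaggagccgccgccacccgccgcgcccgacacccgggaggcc
ITGB5, chr3:124901419-124901668, minus strand: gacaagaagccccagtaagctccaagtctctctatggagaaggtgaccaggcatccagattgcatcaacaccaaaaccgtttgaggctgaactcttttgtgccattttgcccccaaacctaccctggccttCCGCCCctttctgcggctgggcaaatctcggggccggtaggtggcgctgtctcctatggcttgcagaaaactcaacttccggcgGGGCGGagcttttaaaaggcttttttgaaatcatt
ITGB6, chr2:160200314-160200522, minus strand: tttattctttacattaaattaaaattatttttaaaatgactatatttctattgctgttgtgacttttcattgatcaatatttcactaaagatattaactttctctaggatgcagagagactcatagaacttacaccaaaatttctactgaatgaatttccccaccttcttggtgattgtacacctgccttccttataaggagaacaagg
The window of ITGB6 had a GC content of 30.0% over its 250 upstream bases, against a median of 58.0% over 35116 RefSeq promoters, and that of this ITGB1 start had 78.4%. GGGCGG was found 3 times before the ITGB1 start shown and 2 times before the ITGB5 start shown. It was in 7 of the members' 13 windows, against 42.6% of all promoters. TATAAA stood once before the ITGA6 start shown, in 2 of 13 windows and in 10.7% of all promoters. Windows of other starts of these genes differed. The other ITGA6 window had 3 matches of GGGCGG and none of TATAAA. The other ITGB1 window had 3 matches of TATAAA and none of GGGCGG. Of the ITGB5 windows not shown, that from 124887316 had 3 matches of GGGCGG and that from 124887635 none. The same search on both strands found the AP-1 element TGANTCA and the cyclic AMP element TGACGTCA in none of the 13 windows, against 6.57% and 1.65% of all promoters. GGAATG, the element of TEAD factors, was in 2 windows (11.9% of all promoters), and NCGTG, the core bound by hypoxia-inducible factors, in 9 (61.1%). NCGTG is contained in no other motif searched, and its matches on opposite strands may overlap. These are matches of letters and not measured sites.

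Levels are compared between subunits per length, as RPKM: CPM, scaled by edgeR's TMM factors, per kilobase of merged exons. In untreated SW620 ITGB4, ITGA6 and ITGB1 led. ITGB4 stood at 70.2 ± 2.22 RPKM (mean ± SD, n = 2), ITGA6 at 61.3 ± 1.03 and ITGB1 at 43.2 ± 1.17. ITGB5 followed with 16.9 ± 0.679, then ITGA5 with 8.87 ± 0.554 and ITGA2 with 8.79 ± 0.0565, which overlapped, and ITGB6 with 7.0 ± 0.511. ITGAV, the only alpha partner of ITGB5, ITGB6 and ITGB8, was low at 2.80 ± 0.128 RPKM. ITGB8 (0.902 ± 0.0642) and ITGA3 (0.798 ± 0.103) came last and overlapped. With caffeine the SW620 order was the same except that ITGA5, at 24.2 ± 1.37 RPKM, lay above ITGB5, at 22.4 ± 0.753, and ITGB6 and ITGA2 overlapped in place of ITGA5 and ITGA2.

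In untreated SW480 the order was led by ITGB5, the beta chain of a vitronectin receptor, at 41.9 ± 0.605 RPKM. ITGA6 (27.2 ± 3.35) and ITGB4 (24.1 ± 1.98) overlapped below it, and so did ITGB1 (13.9 ± 2.21) and ITGA3 (12.5 ± 0.424). ITGA5 stood at 10.1 ± 0.768 RPKM, ITGAV at 7.27 ± 1.71, ITGA2 at 3.00 ± 0.803 and ITGB8 at 0.436 ± 0.0831. ITGB6 came last, with 0 and 2 reads in the 2 libraries. With caffeine the SW480 order of the 10 subunits was the same. Per kilobase of the longest transcript instead of the merged exons, levels of ITGA3, ITGB8, ITGB1 and ITGA5 were 1.52 to 1.79 times higher in every group. ITGA3 then lay just above ITGB1 in SW480 (22.3 ± 0.758 and 22 ± 3.51 RPKM, untreated), where the 2 overlap on either scale, and it lay above ITGB8 in caffeine-treated SW620.

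**Figure D1:**
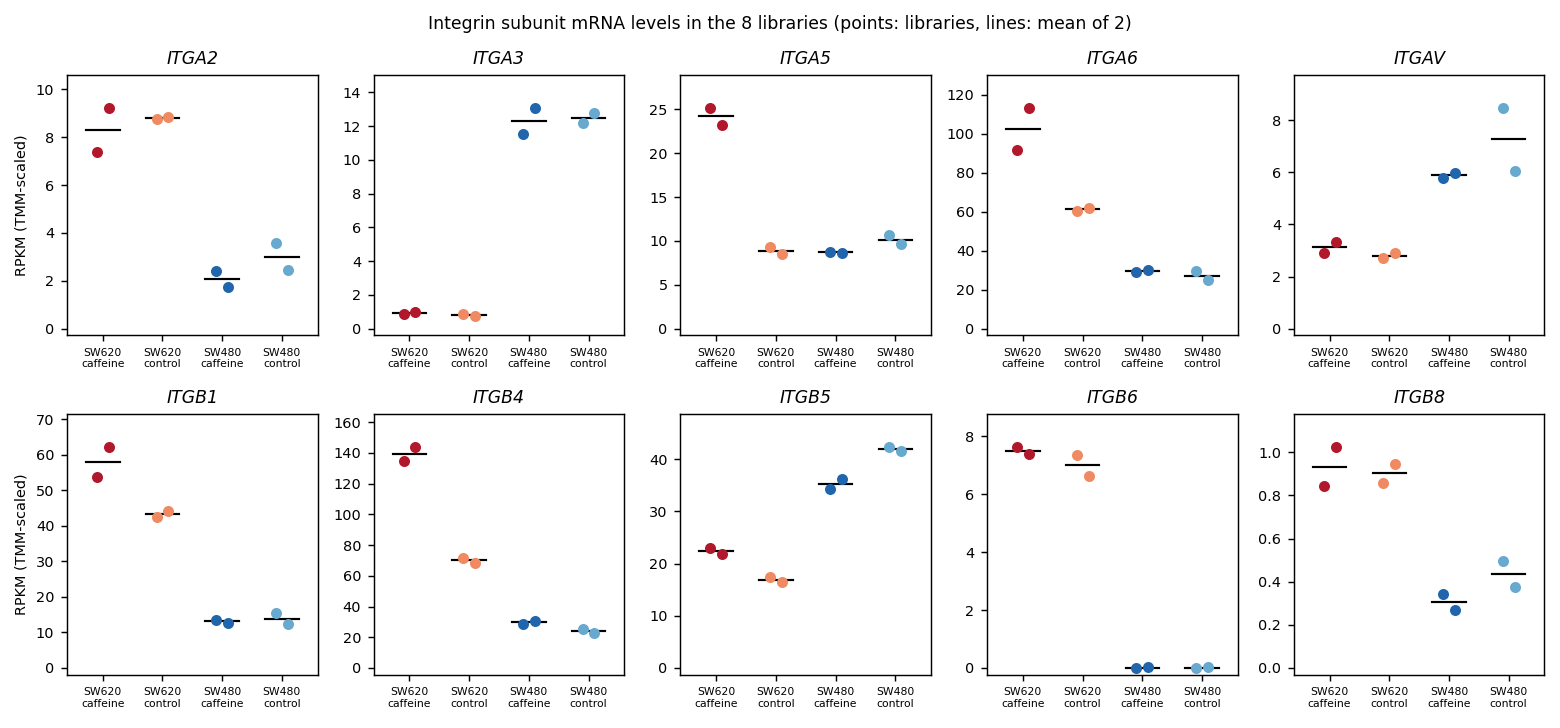
Level of each of the 10 integrin subunits in RPKM (y axis, own linear scale from 0 in each panel) in SW620 with caffeine, untreated SW620, SW480 with caffeine and untreated SW480; points are libraries and lines the mean of 2. ITGA5 stands apart in caffeine-treated SW620 (25.2 and 23.3 RPKM), ITGA3 is low in every SW620 library and ITGB6 is at or near 0 in every SW480 library.

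Caffeine came with higher mRNA of 5 of the 10 subunits in SW620 and with lower mRNA of none. The fibronectin receptor chain ITGA5 had the largest change of the 10, and both chains of the hemidesmosome receptor, ITGB4 and ITGA6, rose with it. The common beta chain ITGB1 and the vitronectin receptor chain ITGB5 rose less. Calls are from edgeR's quasi-likelihood test with Benjamini-Hochberg adjustment over 17671 genes, at a threshold of 0.05. In SW620 14.4% of all tested genes were called. The part of all tested genes called higher with caffeine was 8.1%, and the part called lower 6.25%. The median log2 fold change of the 10 members was 0.31, against -0.01 over all tested genes. Libraries of the 2 groups did not overlap for 7 of the 10 members, and for 62% of all tested genes. Of 9 epithelial markers tested, CDH1, KRT19 and KRT20 also rose in SW620 and CDX2 fell. The list sums were 14308 and 12902 CPM with caffeine and 10721 and 10653 CPM without. KRT8 and KRT18, which were not called, made up most of these sums. Of 3 fibroblast markers COL1A1 rose, and of 4 leukocyte markers none was called. At an unadjusted p under 0.05 there was 1 of the leukocyte markers, DESeq2 and limma-voom called 0 and a separate fit of the SW620 libraries called 2. In SW480 edgeR and limma-voom called 0 of the 9 epithelial markers and DESeq2 called 2. At an unadjusted p under 0.05 there were 5, against 19.4% of all tested genes. KRT8 and KRT19 were higher with caffeine there, and CDH1, CDX2 and VIL1 lower. The part of the markers in the members' values was not tested.

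ITGA5 had 25.2 and 23.3 RPKM in the caffeine-treated SW620 libraries and 9.26 and 8.47 RPKM in the untreated ones. Its log2 fold change was 1.45 ± 0.12 (SE), a 2.73-fold rise (edgeR, adjusted p = 9.85e-07). Both treated libraries lay far above both untreated ones. ITGB4 had 135 and 144 RPKM with caffeine, against 71.8 and 68.7 without (log2 fold change 0.99 ± 0.12, 1.98-fold, edgeR adjusted p = 3.82e-05). Its partner ITGA6 had 91.5 and 113 RPKM with caffeine and 60.5 and 62.0 without (0.74 ± 0.13, 1.67-fold, edgeR adjusted p = 0.0011). The groups did not overlap for either chain, although the treated libraries of ITGA6 lay well apart from each other. These 3 kept their calls when any 1 of the 8 libraries was left out.

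ITGB1 had 53.8 and 62.2 RPKM in the caffeine-treated SW620 libraries, against 42.4 and 44.1 in the untreated ones (log2 fold change 0.42 ± 0.13, edgeR adjusted p = 0.0352). ITGB5 had 23 and 21.9 RPKM with caffeine and 17.4 and 16.4 without (0.41 ± 0.11, edgeR adjusted p = 0.021). Both rises were small and close to the threshold. The call of ITGB1 was lost without SW620 caffeine replicate 2 (adjusted p = 0.286), SW620 control replicate 1 (0.242) or SW620 control replicate 2 (0.178). That of ITGB5 was lost without any 1 of the 4 SW620 libraries: caffeine replicate 1 (0.129) or 2 (0.0835) and control replicate 1 (0.139) or 2 (0.245). With 1 library left out, edgeR takes the lone library of its group to vary like the other groups.

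The other 5 subunits were not called in SW620. ITGA2, the collagen receptor chain, had 7.38 and 9.23 RPKM with caffeine and 8.75 and 8.83 without (log2 fold change -0.08 ± 0.17). ITGA3, the second laminin receptor chain, had 0.861 and 0.974 RPKM, against 0.871 and 0.725 (0.20 ± 0.16). Both genes overlapped between the groups. The ITGAV libraries had 2.92 and 3.32 RPKM with caffeine and 2.71 and 2.90 without (0.15 ± 0.16). ITGB6, a beta chain that activates latent TGF-beta, had 7.64 and 7.39 RPKM with caffeine and 7.36 and 6.64 without (0.10 ± 0.16). ITGB8, which shares that role, had 0.843 and 1.02 RPKM against 0.857 and 0.948 (0.05 ± 0.17). Adjusted p of these 5 was 0.443 to 0.888. No change of ITGAV or of its beta chains ITGB6 and ITGB8 was detectable with these libraries.

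In SW480 none of the 10 subunits was called with caffeine by edgeR, where 3.6% of all tested genes were (1.67% higher and 1.93% lower). At an unadjusted p under 0.05 there were 4, with ITGB4 higher and ITGA2, ITGB5 and ITGB8 lower, against 19.4% of all tested genes. The Wald test of DESeq2 and limma-voom called 0 as well, and edgeR with no filter on low counts called ITGA2 lower (adjusted p = 0.0285). Without SW480 control replicate 2, edgeR called 2 lower, ITGA2 (log2 fold change -0.81, adjusted p = 0.00986) and ITGAV (-0.54, adjusted p = 0.0263). Leaving out SW480 caffeine replicate 2, the library with few mitochondrial reads, left the count at 0. Libraries did not overlap for 6 of the 10 members, and for 43% of all tested genes.

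ITGB4 had 28.6 and 30.9 RPKM in the caffeine-treated SW480 libraries and 25.5 and 22.7 RPKM in the untreated ones (log2 fold change 0.30 ± 0.12, edgeR adjusted p = 0.17). ITGA6 had 29.2 and 30.3 RPKM with caffeine and 29.6 and 24.9 without (0.13 ± 0.13). ITGA5 had 8.75 and 8.64 RPKM, against 10.7 and 9.60 (-0.22 ± 0.12). Of the 3 genes with the largest rises in SW620, 1 was thus slightly lower here with caffeine, though not called. ITGB5 had 34.4 and 36.3 RPKM with caffeine and 42.3 and 41.5 without (-0.25 ± 0.11, edgeR adjusted p = 0.23). ITGA2 had 2.41 and 1.75 RPKM against 3.57 and 2.43 (-0.54 ± 0.19, edgeR adjusted p = 0.132), and ITGB8 0.344 and 0.269 against 0.495 and 0.377 (-0.52 ± 0.21). The groups were close for these genes, with treated ITGA2 library 1 just under the lower untreated one. ITGAV had 5.79 and 5.96 RPKM with caffeine and 8.48 and 6.06 without (-0.31 ± 0.15), ITGB1 13.5 and 12.6 against 15.4 and 12.3 (-0.09 ± 0.13) and ITGA3 11.5 and 13.1 against 12.2 and 12.8 (-0.02 ± 0.13). ITGB6 had 0 and 2 reads with caffeine and 0 and 2 without, so no fold is given.

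The caffeine response differed between the lines for 3 of the 10 subunits by the test of the difference itself (SW620 minus SW480), each with the higher response in SW620, where 6.71% of all tested genes were called 4.24% with the higher and 2.47% with the lower response in SW620. For ITGA5 the difference was 1.67 ± 0.17 on the log2 scale (SE, edgeR adjusted p = 2.27e-05), for ITGB4 0.68 ± 0.17 (adjusted p = 0.0213) and for ITGB5 0.66 ± 0.16 (adjusted p = 0.0183). In SW480 none of the 3 was called with caffeine, where the log2 fold changes of ITGA5 and ITGB5 were below 0 and that of ITGB4 above 0. ITGA6 just missed the threshold (0.61 ± 0.18, adjusted p = 0.0552) and passed it in edgeR with the size factors of DESeq2 (0.0461), with no filter (0.0289) and by the Wald test (0.02). ITGB1 (0.51 ± 0.18, adjusted p = 0.105), ITGB8 (0.58), ITGAV (0.46), ITGA2 (0.46) and ITGA3 (0.22) had differences of the same sign that were not called. The ITGB4 call was lost without SW620 caffeine replicate 2 (adjusted p = 0.0895), control replicate 1 (0.1) or control replicate 2 (0.142). The ITGB5 call was lost without SW620 caffeine replicate 1 (0.0671) or 2 (0.0542) and without control replicate 1 (0.0888) or 2 (0.142). Leaving out SW480 control replicate 2 raised the count to 7, and only the ITGA5 call stood in each of the 8 fits with 1 library left out.

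**Figure D2:**
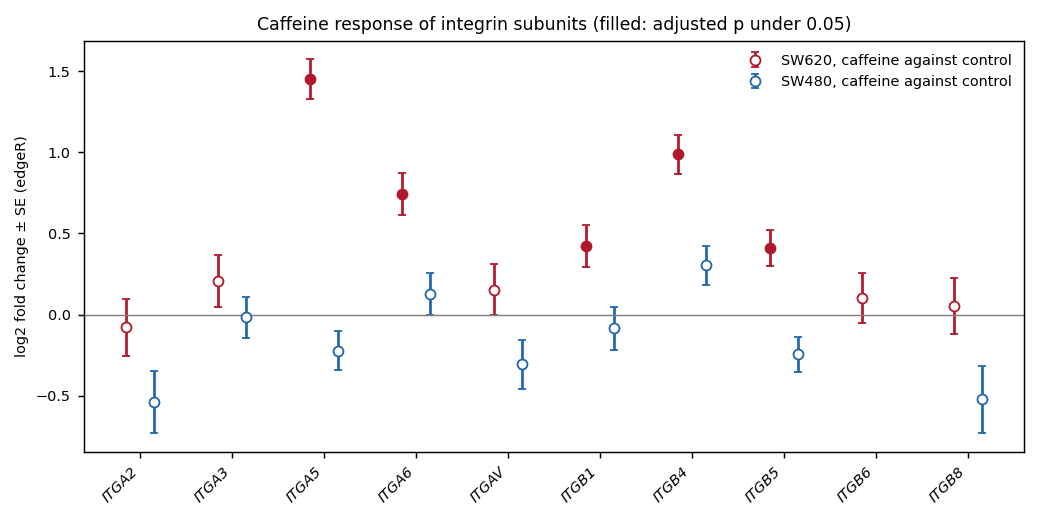
Log2 fold change of each integrin subunit with caffeine against control (y axis, points with SE bars) in SW620 and in SW480; filled points passed an adjusted p of 0.05 in edgeR, and ITGB6 in SW480 is left out for want of reads. Filled points are ITGA5, ITGA6, ITGB1, ITGB4 and ITGB5 in SW620, from 0.41 to 1.45, and there are none in SW480.

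Between the untreated lines 9 of the 10 subunits were called, ITGB6 among them, which passed the filter on low counts only through SW620. SW620 had more of ITGB6, ITGB1, ITGA2, ITGB4, ITGA6 and ITGB8 than SW480 and less of ITGA3, ITGAV and ITGB5, and ITGA5 was not called. Of all tested genes 65.6% were called, 33% higher and 32.6% lower in SW620. The libraries of the lines did not overlap for any of the 10, as for 83.4% of all tested genes. The line comparisons and the caffeine comparisons share their libraries.

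Nearly all ITGB6 reads came from SW620. The untreated SW620 libraries had 683 and 622 reads of ITGB6 and the untreated SW480 libraries 0 and 2, which makes a ratio of 553 (95% interval for counting error 153 to 4570). With caffeine the SW620 libraries had 602 and 689 reads and the SW480 libraries again 0 and 2 (ratio 687, interval 190 to 5678). ITGA3 ran the other way: 0.871 and 0.725 RPKM in SW620, against 12.2 and 12.8 RPKM in SW480, with a log2 difference of -3.96 ± 0.15 (SE, 15.6-fold lower in SW620, edgeR adjusted p = 8.48e-13). SW480 thus held the greater part of the laminin receptor chain ITGA3, SW620 of the TGF-beta-activating chain ITGB6. ITGA3 kept its call without any 1 library. ITGB6 did too, but it passed the filter on low counts only through its SW620 reads. Its call therefore adds nothing to the read counts above.

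ITGB1 had 42.4 and 44.1 RPKM in untreated SW620 and 15.4 and 12.3 RPKM in untreated SW480 (log2 difference 1.64 ± 0.13, edgeR adjusted p = 9.73e-09). ITGB4 had 71.8 and 68.7 RPKM in SW620, against 25.5 and 22.7 in SW480 (1.55 ± 0.12), and ITGA6 60.5 and 62.0 against 29.6 and 24.9 (1.17 ± 0.13). The 3 chains of the ITGA6 receptors were thus all higher in SW620. ITGA2 was 2.93-fold higher in SW620 (1.55 ± 0.18) and ITGB8 2.07-fold (1.05 ± 0.19). ITGB5 had 17.4 and 16.4 RPKM in SW620 and 42.3 and 41.5 in SW480 (-1.31 ± 0.11), and its partner ITGAV 2.71 and 2.90 against 8.48 and 6.06 (-1.37 ± 0.16). This alpha and beta pair was lower in SW620 by about the same log2 value. ITGA5 had 9.26 and 8.47 RPKM in SW620, against 10.7 and 9.60 in SW480 (-0.19 ± 0.12, edgeR adjusted p = 0.174). With caffeine in both lines ITGA5 was called too, with 25.2 and 23.3 RPKM in SW620 and 8.75 and 8.64 in SW480 (1.48 ± 0.12, edgeR adjusted p = 1.46e-08), so that all 10 members were called, 7 higher and 3 lower. Of all tested genes 66.3% were called, 32.9% higher and 33.4% lower, and libraries did not overlap for 81.4% of them and for 10 of the 10 members. No call of either line comparison was lost without any 1 library.

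Pairing partners were set against each other as the ratio of alpha to beta RPKM in each library, for 9 known pairs. With 2 libraries a group the smallest p an exact permutation test can give is 0.333, so the ratios are described with no test. The hemidesmosome pair ITGA6 and ITGB4 stayed close to 1 to 1 in all 4 groups. Its ratio was 0.734 ± 0.0766 in caffeine-treated SW620 (SD, n = 2) and 0.873 ± 0.0423 in untreated SW620, and 1.00 ± 0.0269 in caffeine-treated SW480 and 1.13 ± 0.0459 in untreated SW480. In both lines the ratio was lower with caffeine, by 0.25 on the log2 scale in SW620 and 0.17 in SW480. The larger SD of the compared groups was 0.15 in SW620 and 0.059 in SW480. The libraries did not overlap, as for 8 of 9 pairs in SW620 and 5 of 8 in SW480. ITGA6 exceeded its other partner ITGB1 in every library, with ratios of 1.76 ± 0.0867 and 1.42 ± 0.0146 in treated and untreated SW620 and of 2.28 ± 0.17 and 1.97 ± 0.0728 in treated and untreated SW480.

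The fibronectin receptor pair differed most with caffeine in SW620, though not in SW480. ITGA5 over ITGB1 was 0.421 ± 0.0666 in caffeine-treated and 0.205 ± 0.0184 in untreated SW620, a log2 difference of 1.03 against a larger SD of 0.23. In SW480 the ratio was 0.666 ± 0.0251 with caffeine and 0.736 ± 0.062 without. Treated SW620 thus lay between untreated SW620 and both SW480 groups. ITGA3 over ITGB1 was 0.0158 ± 0.000239 in treated and 0.0185 ± 0.00289 in untreated SW620, against 0.944 ± 0.129 and 0.913 ± 0.176 in treated and untreated SW480. The log2 difference between the untreated lines was -5.62, the widest of the pairs compared. ITGA2 over ITGB1 was nearly the same in the lines, at 0.203 ± 0.00419 in untreated SW620 and 0.215 ± 0.0237 in untreated SW480, and was lower with caffeine in both (0.143 ± 0.00801 in SW620 and 0.159 ± 0.0284 in SW480).

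ITGAV, which pairs with 4 of the 5 beta chains described, was below ITGB5 in every library. ITGAV over ITGB5 was 0.139 ± 0.0173 in treated and 0.166 ± 0.0143 in untreated SW620, and 0.166 ± 0.00306 in treated and 0.173 ± 0.0384 in untreated SW480, so that the untreated lines overlapped. ITGAV over ITGB6 was 0.416 ± 0.0473 in treated and 0.402 ± 0.0476 in untreated SW620, which overlapped, and is not given in SW480. ITGAV exceeded ITGB8 in all groups: the ratio was 3.35 ± 0.157 in treated and 3.11 ± 0.0795 in untreated SW620, against 19.5 ± 3.72 and 16.6 ± 0.765 in treated and untreated SW480. ITGAV over ITGB1 was 0.0538 ± 0.000616 in treated and 0.0648 ± 0.00121 in untreated SW620, against 0.451 ± 0.0301 and 0.521 ± 0.0405 in SW480. On the scale of the longest transcript each ratio is multiplied by 1 factor in all libraries, from 0.633 for ITGA2 over ITGB1 to 1.17 for ITGAV over ITGB6. That moves the ITGA2 ratio by more than 1.5 times and leaves all differences between groups as they are.

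**Figure D3:**
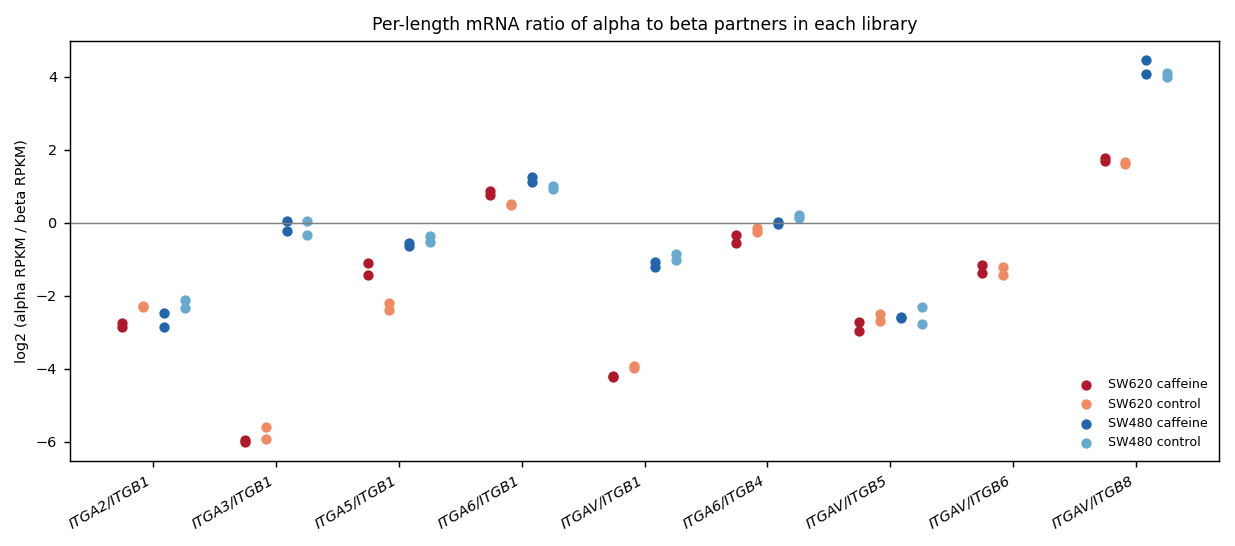
Log2 of the alpha over the beta RPKM (y axis) for 9 integrin pairs in each library of SW620 with caffeine, untreated SW620, SW480 with caffeine and untreated SW480; 0 means equal levels, and ITGAV/ITGB6 is left out in SW480 for want of reads. ITGA6/ITGB4 lies near 0 in all groups, ITGA3/ITGB1 is near -6 in SW620 and near 0 in SW480, and ITGA5/ITGB1 is higher in treated than in untreated SW620.

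Several beta chains share an alpha partner, so their shares of the summed RPKM of the 5 beta subunits were also taken. ITGB4 held 61.2% and 60.9% of that sum in the caffeine-treated SW620 libraries and 51.4% and 50.2% in the untreated ones, and 37.2% and 38.5% in treated and 30.4% and 29.5% in untreated SW480. ITGB5 held the largest share in SW480, with 44.8% and 45.3% with caffeine and 50.6% and 54.0% without, against 10.4% and 9.26% with caffeine and 12.4% and 12% without in SW620. In both lines the ITGB4 share was larger and the ITGB5 share smaller in the treated libraries. A share also depends on the other chains. The level of ITGB5 itself was higher with caffeine in SW620 (22.4 against 16.9 RPKM) and lower, not called, in SW480 (35.3 against 41.9 RPKM). ITGB1 held 24.5% and 26.3% in treated and 30.3% and 32.2% in untreated SW620, and 15.8% to 18.4% in SW480. The whole sum of the 10 subunits was 348 and 387 RPKM in treated and 222 and 219.6 RPKM in untreated SW620, against 134 and 139.9 in treated and 148 and 133 in untreated SW480. Among the ITGAV partners other than ITGB1, ITGB6 gave 24.3% and 24.4% of the reads per length in treated and 28.8% and 27.7% in untreated SW620, and at most 0.0594% in a SW480 library.

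**Figure D4:**
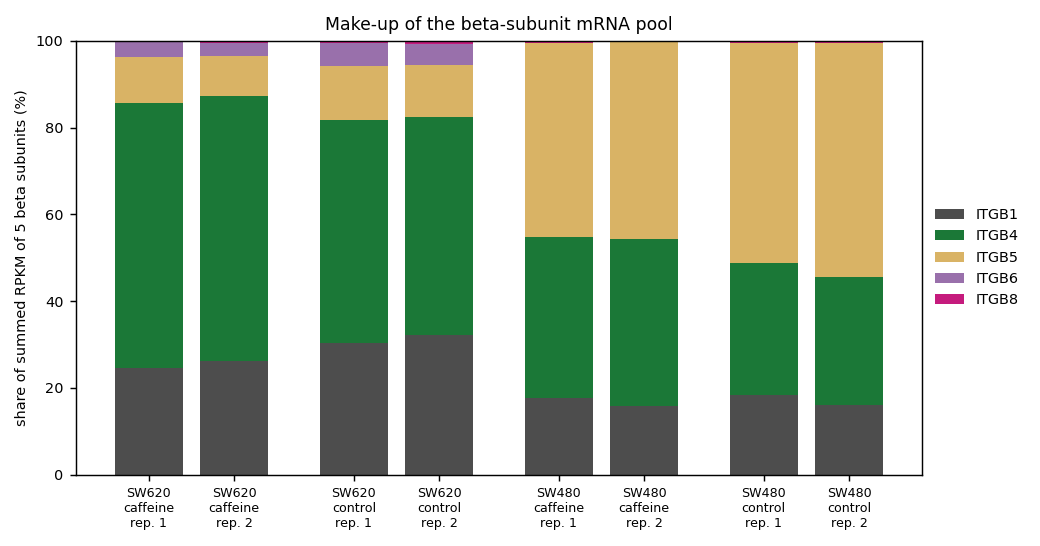
Share of each beta subunit in the summed RPKM of ITGB1, ITGB4, ITGB5, ITGB6 and ITGB8 (y axis, percent, stacked bars from 0 to 100), 1 bar per library, in SW620 with caffeine, untreated SW620, SW480 with caffeine and untreated SW480. ITGB4 fills 50.2% or more of each SW620 bar and ITGB5 is the largest part of each SW480 bar.

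Of the ligands, the laminin-332 chains LAMA3 and LAMB3 rose in SW620, as did ITGA6 and ITGB4. Laminins are trimers of an alpha, a beta and a gamma chain, laid down in basement membranes. Among 8 laminin chains tested of 11 listed, 2 were called higher with caffeine in SW620, LAMA3 and LAMB3, and 1 lower, LAMC3 (8.1% and 6.25% of all tested genes). LAMA3 had 72.5 and 77.3 CPM in treated and 30.5 and 28.6 CPM in untreated SW620 (log2 fold change 1.34 ± 0.16, edgeR adjusted p = 3.32e-05). LAMB3 had 264 and 272 CPM with caffeine and 182 and 178 without (0.58 ± 0.14, edgeR adjusted p = 0.0101), and LAMC3 8.86 and 6.74 against 14.2 and 14.7 (-0.89 ± 0.19, edgeR adjusted p = 0.00485). The groups did not overlap for 6 of the 8 chains, these 3 among them, and for 62% of all tested genes. The other 5 chains had log2 fold changes from -0.07 to 0.40. LAMA3 kept its call without any 1 library. LAMB3 lost its call without SW620 caffeine replicate 2 (0.0664), control replicate 1 (0.0882) or control replicate 2 (0.112), and LAMC3 without caffeine replicate 2 (0.0916) or control replicate 2 (0.0625), so that without either of these libraries 1 chain was called. In SW480 no chain was called by edgeR, DESeq2 or limma-voom, and 0 had an unadjusted p under 0.05, LAMA3 being at 41.7 and 44.4 CPM with caffeine and 61.7 and 41.9 without (-0.27 ± 0.16). The difference between the lines was called for LAMA3 (1.61 ± 0.22) and LAMB3 (0.75 ± 0.22), 2 of 8 beside 6.71% of all tested genes. For LAMB3 the call of the difference ended when SW480 caffeine replicate 1 or any 1 of the 4 SW620 libraries was left out (adjusted p 0.0799 to 0.159).

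Of 4 hemidesmosome partners, 2 rose in SW620, beside 8.1% of all tested genes: PLEC (plectin), which ties ITGB4 to keratin, and DST, whose epithelial form does so too. PLEC had 945 and 1064 CPM in treated and 644 and 587 in untreated SW620 (log2 fold change 0.71 ± 0.16, edgeR adjusted p = 0.00668), and DST 389 and 483 against 261 and 259.5 (0.74 ± 0.17, edgeR adjusted p = 0.00888). Both lost their calls without SW620 caffeine replicate 2 (0.0644 for PLEC and 0.1 for DST) or control replicate 2 (0.0971 and 0.0694), and DST also without control replicate 1 (0.0636). COL17A1, the collagen of hemidesmosomes, had 37 and 38 reads in treated and 42 and 34 in untreated SW620, and 1 read in all SW480 libraries together. CD151, a tetraspanin bound to laminin receptors, had a log2 fold change of 0.03 ± 0.14 in SW620. In SW480 none of the 4 was called by edgeR, DESeq2 or limma-voom, and 0 had an unadjusted p under 0.05. There the log2 fold changes were -0.04 for PLEC, -0.07 for DST and -0.02 for CD151. The difference of the responses between the lines was called for 0 of the 4 by edgeR and limma-voom and for 2 by DESeq2. PLEC and DST had an unadjusted edgeR p under 0.05 for it, as had 22.8% of all tested genes.

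**Figure D5:**
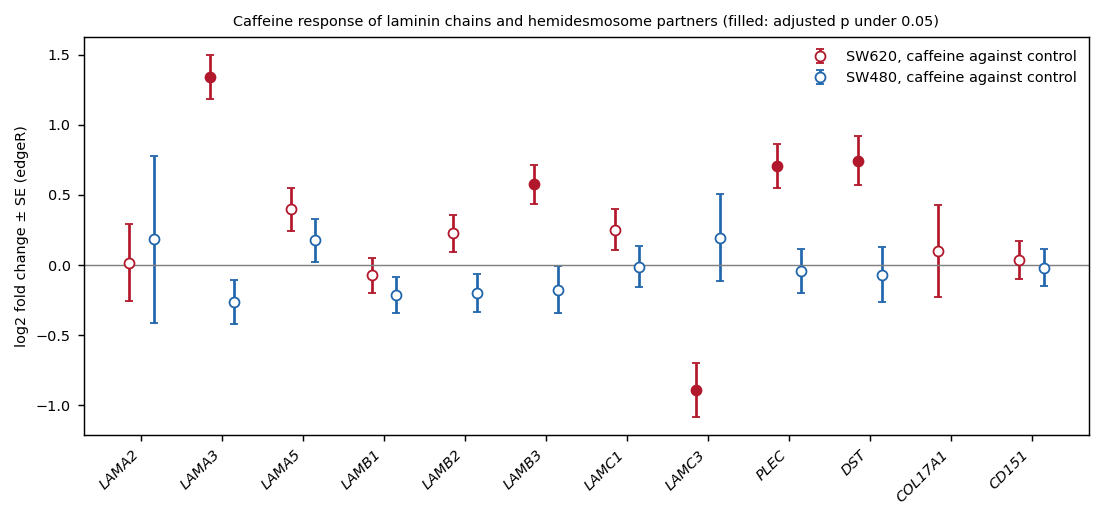
Log2 fold change with caffeine against control (y axis, points with SE bars) of the 8 laminin chains tested and the 4 hemidesmosome partners, in SW620 and in SW480; filled points passed an adjusted p of 0.05 in edgeR, and COL17A1 in SW480 is left out for want of reads. Filled points above 0 are LAMA3, LAMB3, PLEC and DST in SW620, and LAMC3 in SW620 is the only one below 0.

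Other ligands moved both ways in SW620, with 4 higher and 4 lower of 13 tested, beside 8.1% higher and 6.25% lower over all tested genes. L1CAM, an adhesion molecule bound by RGD-binding integrins, had 19 and 18.1 CPM in treated and 6.67 and 4.70 CPM in untreated SW620 (log2 fold change 1.70 ± 0.17, edgeR adjusted p = 6.9e-06). FN1 (fibronectin), the ligand of the ITGA5 receptor, had 51.5 and 57.9 CPM with caffeine, against 21.7 and 23.1 without (1.29 ± 0.15, edgeR adjusted p = 2.48e-05). TNC (tenascin C) had 350.4 and 378 CPM against 168 and 173 (1.10 ± 0.11), and CCN1, a matrix protein and target of TEAD factors, 10.1 and 9.30 against 19.2 and 20.3 (-1.03 ± 0.14). COL1A1 was the fourth higher, and COL4A2, CCN2 and NID2 the others lower, these 4 named after their values were seen. CCN2 lost its call without SW620 caffeine replicate 2 (0.0699) or control replicate 2 (0.0881), and NID2 without caffeine replicate 1 (0.0664), control replicate 1 (0.0525) or control replicate 2 (0.0526). In SW480, TNC rose as well (16.6 and 15.8 CPM with caffeine, 7.56 and 8.34 without, 1.03 ± 0.14) and CCN1 fell (29.8 and 31.6 with caffeine, 56.8 and 56.4 without, -0.88 ± 0.13). FN1 in SW480 had 123 and 119.9 CPM with caffeine and 137 and 103 without (0.02 ± 0.14), and the responses of FN1 (1.26 ± 0.20) and L1CAM (1.61 ± 0.22) differed between the lines.

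Of 8 tested genes of latent TGF-beta, which ITGB6 and ITGB8 receptors release, 1 rose and 2 fell in SW620, beside 8.1% higher and 6.25% lower over all tested genes. TGFB1 had 127 and 124 CPM in treated and 83.0 and 75.6 CPM in untreated SW620 (log2 fold change 0.67 ± 0.12, edgeR adjusted p = 0.001). LTBP2, a latent TGF-beta binding protein of the matrix, had 19 and 27 reads with caffeine and 54 and 64 without (-1.24 ± 0.26), and NRROS, which holds latent TGF-beta at the surface of myeloid cells, 16 and 16 reads against 59 and 34 (-1.41 ± 0.38). LTBP2 lost its call without SW620 control replicate 2 (0.0588), and NRROS without caffeine replicate 1 (0.0661) or 2 (0.14) or control replicate 1 (0.347) and by the DESeq2 Wald test (0.088). In SW480 TGFB1 was lower with caffeine, at 135 and 133 CPM against 176 and 185 (-0.43 ± 0.11, edgeR adjusted p = 0.0485), a call lost without any 1 of the 8 libraries (0.0603 to 0.219) and, with all 8, under the replicate block (0.0723), with no filter (0.061) and in a separate fit of SW480 (0.171). The response of TGFB1 differed between the lines by 1.09 ± 0.16 on the log2 scale.

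Of 26 tested genes listed as activators and adaptors, some of which link the tails of beta subunits to actin, 8 rose in SW620 and none fell. Over all tested genes 8.1% were higher and 6.25% lower. ZYX (zyxin), a sensor of tension in actin fibres, had 143 and 139 CPM in treated and 77.7 and 75.4 in untreated SW620 (log2 fold change 0.88 ± 0.11, edgeR adjusted p = 7.31e-05). TNS4, a tensin of epithelial cells, had 157 and 147 CPM with caffeine, against 85.5 and 75.7 without (0.91 ± 0.15, edgeR adjusted p = 0.000816). Both kept their calls in SW620 without any 1 library. PXN (paxillin, 0.68 ± 0.14) and FLNA (filamin A, 0.66 ± 0.14) were next by adjusted p. PXN lost its call without SW620 control replicate 1 (0.067), and FLNA without caffeine replicate 2 (0.0519), control replicate 1 (0.0587) or control replicate 2 (0.0691). The count of 8 was 4 without SW620 caffeine replicate 2, 2 without control replicate 1 and 3 without control replicate 2. In SW480 only LIMS1, the PINCH1 adaptor of integrin-linked kinase, was called, 1 of 26 beside 3.6% of all tested genes. It had 410 and 328 CPM with caffeine and 626 and 531 without (-0.65 ± 0.13, edgeR adjusted p = 0.015), and lost the call without SW480 caffeine replicate 2 (0.183) or control replicate 1 (0.065).

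Of 16 kinases and signalling genes of focal adhesions, PTK2B, a kinase related to focal adhesion kinase, and FYN, a SRC family kinase, rose in SW620, with log2 fold changes of 0.76 ± 0.16 and 0.38 ± 0.11. These 2 of 16 stand beside 8.1% of all tested genes higher. PTK2B lost its call without SW620 caffeine replicate 2 (0.0651) or control replicate 2 (0.0872), and FYN without any 1 of the 4 SW620 libraries (0.123 to 0.257). In SW480 edgeR, DESeq2 and limma-voom called 0 of the 16, and 0 had an unadjusted p under 0.05. Of 14 tetraspanins and lateral partners, 3 rose and 3 fell in SW620, beside 8.1% higher and 6.25% lower over all tested genes. CAV1 (caveolin-1), a membrane scaffold that associates with integrins, had 140.4 and 127 CPM in treated and 23.5 and 24.4 in untreated SW620 (log2 fold change 2.48 ± 0.13, edgeR adjusted p = 5.4e-09). PLAUR, the urokinase receptor, had 23.1 and 16.4 CPM with caffeine, against 9.10 and 9.66 without (1.07 ± 0.19, edgeR adjusted p = 0.000983). CD82, a tetraspanin, rose too (0.70 ± 0.15) and lost its call without SW620 control replicate 1 (0.153). SLC7A5, an amino acid transporter that pairs with the integrin-associated SLC3A2, fell (-0.58 ± 0.13) and lost its call without caffeine replicate 1 (0.139), control replicate 1 (0.142) or control replicate 2 (0.0639). Without SW620 control replicate 1 or 2 the count of 6 was 2 or 3. In SW480 edgeR and limma-voom called 0 of the 14 and DESeq2 called 1. There 4 had an unadjusted p under 0.05, against 19.4% of all tested genes. CAV1 was not among these 4, at 5.91 and 5.06 CPM with caffeine against 4.41 and 4.37 without (0.31 ± 0.18).

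Of the other 16 integrin subunit genes, 8 passed the filter. With caffeine 1 of these 8 was called in each line, beside 14.4% of all tested genes in SW620 and 3.6% in SW480. In SW620 ITGB7, a leukocyte beta chain, was the only one called with caffeine, with 10.5 and 10.1 CPM against 6.52 and 4.40 (log2 fold change 0.91 ± 0.21, edgeR adjusted p = 0.007), a call lost without SW620 control replicate 2 (0.176). In SW480 the only call was ITGA9, an alpha partner of ITGB1, with 7.97 and 9.44 CPM against 5.14 and 4.02 (0.93 ± 0.23, edgeR adjusted p = 0.0329). It was lost without SW480 caffeine replicate 2 (0.331), control replicate 1 (0.057) or control replicate 2 (0.0971), and by the DESeq2 Wald test (0.0735). Between the untreated lines 7 of the 8 were called, beside 65.6% of all tested genes. ITGA1 had 4.65 and 4.15 CPM in SW620 and 38.7 and 31.8 CPM in SW480 (-3.00 ± 0.19), and ITGA7, a laminin receptor chain, 79.8 and 81.5 against 160 and 144 (-0.91 ± 0.14). ITGAE, which pairs with ITGB7, had 18 and 18.2 CPM in SW620 and 32.5 and 47.3 in SW480 (-1.14 ± 0.16). ITGA9 and ITGA2B were lower in SW620 too, ITGB7 and ITGB2 higher. ITGA9 had 1 and 5 reads in untreated SW620, against 85 and 69 in untreated SW480, and ITGB7 129 and 88 against 3 and 3. ITGA9 passed the filter on low counts only through SW480 and ITGB7 only through SW620. Their calls between the lines therefore add nothing to these reads. ITGA2B lost that call without SW480 control replicate 1 (0.0847) or SW620 control replicate 2 (0.0848). The collagen receptor chains ITGA1 and ITGA2 thus ran opposite ways between the lines.

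Likeness of pattern was measured over the 8 libraries as the root mean square difference of log2 CPM, each gene centred on its own mean, among the 12464 genes whose mean log2 CPM was 1 or more. It is given as a description, since the libraries share 2 lines and 2 treatments. ITGB4 lay close to WSB1 (0.15). ITGA6 ranked 34th for ITGB4 (0.24), while for ITGA6 the nearest were ASPH and GLG1 (0.10 and 0.11) and ITGB4 ranked 105th. ITGB1 lay nearest to TNIK and CAMK2D, and ITGA5 to GPAT3 and DUSP5 (0.14 each). ITGAV lay nearest to CASD1 and DGKH and ITGB5 to FAM83G and SLC17A9, and among the members ITGAV and ITGB5 were each other's nearest (0.18). ITGA2 lay nearest to LPP and SATB1, ITGB8 to SLC38A2 and IQCK, ITGA3 to PPM1K and KLHL29, and ITGB6 to KRTAP3-2 and DNAJC12. ITGA2 and ITGB8 were each other's nearest among the members (0.25). No member was the nearest of all genes to its pairing partner.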

How the data were processed

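Per the labels, poly-A RNA with an integrity number of at least 8 was made into libraries with a directional kit and read as 75 bp single ends. Per the submitters' processing notes, Trim Galore, STAR 2.7.3a, featureCounts 2.0.5 and hg38 were used. The authors deposited raw counts per Ensembl gene, 1 file per library. For the strand setting and the annotation release, the sources used here give nothing. The 12 assignment totals in each file were left out. Ambiguous reads equalled 7.36% to 8.37% of all reads in those totals.

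Of 62649 genes, 62625 had a symbol, 58225 were in GENCODE 29 and 17671 passed filterByExpr. Genes were tested with edgeR 4.0.16 under R 4.3.3 (TMM factors, robust quasi-likelihood, 4 group means, Benjamini-Hochberg over all tested genes). The fitting code was checked on simulated counts. The labels state at least 2 biological replicates a group without saying how cultures were kept apart, so p-values measure the spread between these libraries. Replicates differed beyond sampling noise, and unequally. The chi-square per gene between replicates was 10.1 in treated and 2.90 in untreated SW620, and 39.7 in treated and 19.8 in untreated SW480. The 4 groups share 1 estimate of the spread, so the SEs do not measure the spread of each line by itself. Same-numbered libraries did not deviate together (correlations 0.0105 to 0.0265), so no block was used.

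Alternatives were DESeq2 1.42.0 size factors or Wald test, limma-voom (limma 3.58.1), no filter, a replicate block, separate fits, and each library left out. The members, pathway lists (other integrins, laminins, other ligands, latent TGF-beta, adaptors, kinases, hemidesmosome partners, lateral partners) and marker lists were chosen with earlier results of these data known. Named were all members, up to 4 called genes per list and comparison by adjusted p, and the 2 genes most like each member; 1 gene that met these rules is not reported here. Counts of 0 allow up to 3 counts. The list of 7 endothelial markers summed to 10.9 to 18.3 CPM in SW620 and 2.12 to 2.74 CPM in SW480, with 2 genes higher with caffeine in SW620 (lost without any 1 SW620 library) and 0 called in SW480 by edgeR, DESeq2 or limma-voom (1 at an unadjusted p under 0.05).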

Additional observations from a re-analysis of the deposited data

Results flagged for a closer look

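These genes were picked out because their caffeine responses differed between the lines by the test of the difference itself (SW620 minus SW480, log2 scale, edgeR, adjusted p under 0.05); no explanation was tested. Over all tested genes 6.71% were called in this test, 4.24% with the higher and 2.47% with the lower response in SW620. Among the 10 integrin subunits 3 were called, ITGA5 (1.67 ± 0.17 SE), ITGB4 (0.68 ± 0.17) and ITGB5 (0.66 ± 0.16). ITGA5 and ITGB5 were higher with caffeine in SW620 (1.45 and 0.41) and lower, not called, in SW480 (-0.22 and -0.25). The ITGB4 call ended without SW620 caffeine replicate 2, control replicate 1 or control replicate 2 (adjusted p 0.0895 to 0.142), and the ITGB5 call without any 1 SW620 library (0.0542 to 0.142).

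Of 8 laminin chains 2 were called, LAMA3 (1.61 ± 0.22) and LAMB3 (0.75 ± 0.22). Of 13 other ligands 2 were called, L1CAM (1.61 ± 0.22) and FN1 (1.26 ± 0.20). Of 8 genes of latent TGF-beta 2 were called, TGFB1 and LTBP2. The laminin-332 chains LAMA3 and LAMB3 had log2 fold changes of 1.34 and 0.58 in SW620, against -0.27 and -0.18 in SW480. LAMB3 lost the call of its difference by limma-voom (adjusted p = 0.0572) and without SW480 caffeine replicate 1 or any 1 SW620 library (0.0799 to 0.159). TGFB1 (1.09 ± 0.16) was higher with caffeine in SW620 and lower in SW480, and LTBP2 differed by -1.47 ± 0.31, a call that ended without SW620 control replicate 2 (0.0614).

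Called were 5 of 26 adaptors and 1 of 16 kinases and signalling genes, the latter near the share of 6.71% over all tested genes. They were ZYX (1.08 ± 0.16), TNS4 (0.96 ± 0.22), PTK2B (0.94 ± 0.22), LIMS1 (0.77 ± 0.19), TNS2 (0.75 ± 0.19) and VCL (vinculin, 0.74 ± 0.18). LIMS1 fell in SW480 (-0.65) with 0.12 in SW620, while the other 5 rose in SW620. The ZYX difference kept its call without any 1 library. Calls ended without SW480 caffeine replicate 2 for TNS4 (0.0644), PTK2B (0.0552), LIMS1 (0.0799), TNS2 (0.0914) and VCL (0.0799), and without SW620 control replicate 2 for the same 5 (0.0563 to 0.144). SW620 caffeine replicate 2 ended those of PTK2B, LIMS1, TNS2 and VCL (0.0609 to 0.112), SW620 control replicate 1 those of LIMS1, TNS2 and VCL (0.0583 to 0.138), SW620 caffeine replicate 1 that of LIMS1 (0.0573) and SW480 control replicate 1 that of TNS2 (0.0646). Of 14 tetraspanins and lateral partners 4 were called, CAV1 (2.17 ± 0.22), PLAUR (1.29 ± 0.26), SLC7A5 (-0.92 ± 0.19) and SLC3A2 (-0.65 ± 0.19). SLC7A5 and SLC3A2 form 1 amino acid transporter and had the lower response in SW620. The SLC7A5 call ended without SW620 caffeine replicate 1 (0.0531) or control replicate 1 (0.0736), and the SLC3A2 call without SW480 caffeine replicate 2, SW480 control replicate 1 or any 1 SW620 library (0.111 to 0.2105), with the replicate block (0.053) and with DESeq2 size factors (0.0578).

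Of the marker lists, 1 of 9 epithelial genes was called, CDH1 (2.46 ± 0.45), and 1 of 3 endothelial genes, VWF (1.75 ± 0.41). CDH1 had 6180 and 7859 reads in treated and 3794 and 3968 reads in untreated SW620, against 2 and 9 in treated and 15 and 12 in untreated SW480. VWF had 83 and 106 reads in treated and 60 and 58 in untreated SW620, against 9 and 19 in treated and 24 and 23 in untreated SW480. Its call ended without SW620 caffeine replicate 2, control replicate 1 or control replicate 2 (0.0523 to 0.063).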

How the results depend on the processing

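The count of integrin subunits called with caffeine in SW620 was 5 in the fit reported and in each of the other fits with all 8 libraries, and 3 to 5 with 1 library left out. In SW480 it was 0, 1 with no filter, and 0 to 2 with 1 library left out. For the difference of the responses it was 3, from 3 to 4 in the other fits with all libraries and from 1 to 7 with 1 left out. Between the lines it was 9 untreated and 10 with caffeine in all fits. Same-numbered libraries share only a number: with the replicate block the counts were again 5, 0, 3, 9 and 10. Of the members' log2 fold changes, 11 turned sign with 1 library left out, and none of these was called. With 1 library left out they ranged in SW480 from -0.13 to 0.071 for ITGA3, from -0.26 to 0.087 for ITGB1, from -0.0084 to 0.26 for ITGA6 and from -3.26 to 3.13 for ITGB6, in SW620 from -0.25 to 0.081 for ITGA2 and from -0.10 to 0.19 for ITGB8, and from -3.02 to 3.37 for the ITGB6 difference. The ITGB6 values rest on 0 to 2 reads a library in SW480, where depth allows no statement on caffeine. For the other changes the cause was not tested. Under length and scaling alternatives 32 levels moved by over 1 SD and 128 did not, and 21 pair ratios moved and 357 did not under these and with 1 library left out. Of the members' counts 9 moved by over 1.5 times and 60 did not, and of the list counts 88 moved and 740 did not. Depth and 2 libraries a group limit what could be called.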
